A study of Mus musculus with 12 samples.

Results

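The genes described here are the proneural and neuronal differentiation factors of the basic helix-loop-helix (bHLH) class, namely the neurogenins *Neurog1*, *Neurog2* and *Neurog3*, the NeuroD genes *Neurod1*, *Neurod2*, *Neurod4* and *Neurod6*, and the Nescient helix-loop-helix genes *Nhlh1* and *Nhlh2*. These 9 genes were chosen by name, with earlier results of these data known, among the 45706 Ensembl genes of the deposited count table, and all 9 were found by matching the Ensembl identifiers to gene symbols. Enough reads for a test were present for 7 of them, while *Neurod2* and *Neurod6* fell below the filter on low counts and are described by their counts. The filter left 17003 genes in all.

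Proneural bHLH proteins bind DNA as dimers with the widely expressed E proteins at short motifs called E boxes, and they commit neural progenitor cells to becoming neurons. The neurogenins act early, in dividing progenitors, and switch on NeuroD genes and *Nhlh* genes, which accompany the step from progenitor to young neuron. Id proteins take E proteins away from them, and the Hes and Hey repressors downstream of Notch hold their transcription down. *Neurog3* is best known from the endocrine lineage of the pancreas, and *Neurod1* is used in neurons and in endocrine cells.

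The sequenced RNA came from mouse cells of 4 groups, each with 3 replicates, all of the strain C57BL/6 and all derived from embryonic stem cells that carry GFP in one copy of *Sox1*, the gene of an early neuroepithelial transcription factor. NPC (labelled Baseline) are *Sox1*-negative neural progenitor cells that were not sorted, NPC+ (labelled Sox1posGP) are sorted *Sox1*-positive progenitors in which the transactivator dCas9-VP64 had been directed to the *Sox1* promoter, NSC are unsorted neuroepithelial cells after neural induction, and NR are neuroepithelial cells of neural rosettes sorted for GFP. The labels call NPC and NPC+ glial progenitors, and the study made lines of progenitors that stably carry dCas9-VP64, each from a single cell, with replicates taken on separate days and from separate lines. The line behind each sequenced library is not given in the sources used here. Sorting therefore goes together with the *Sox1* state in the progenitor cells and cannot be told apart from it. The same holds for the delivery of the guide RNAs that direct dCas9-VP64 in NPC+, if NPC did not receive them. The comparison of NR with NSC has a like limit, since NR was sorted and NSC was not.

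*Sox1*, the targeted gene, stood at 4.83 to 6.00 read counts scaled to equal library size (CPM) in NPC, at 20.3 to 21.7 CPM in NPC+ and at 48.6 to 65.0 CPM in NSC. The libraries labelled NR did not match each other, since replicate 1 had 4.62 CPM of *Sox1*, no more than NPC, against 19.2 CPM in replicate 3. Comparisons with NR are therefore given with and without replicate 1. Total counts per library ran from 3407066 to 6315574 in NPC+, from 4939268 to 18351483 in NPC, from 16707006 to 34594885 in NR and from 29046205 to 43095688 in NSC, so a gene of low abundance could be counted less precisely in NPC and NPC+ than in NSC and NR. The glial progenitor markers (8 genes) added up to 4902 to 5297 CPM in NPC and 2314 to 2419 CPM in NPC+, although *Cspg4* had at most 3 counts in any library of either group. The 5 markers of pluripotent cells added up to 610 to 1037 CPM in NR, against 21.1 to 49.8 CPM in NSC, and the 8 neuroepithelial markers to 530 to 1053 CPM in NR, against 1748 to 1836 CPM in NSC.

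The members share the bHLH domain, and the stretch of their coding sequences that is most alike shows how close the genes are to each other and where reads of one member could resemble another. In the 60 bases of each coding sequence that matched *Neurog1* best, 26 bases were the same in all 9 genes, and these are in capitals. Shown are the neurogenin pair, 2 NeuroD genes and *Nhlh2*, each read 5′ to 3′ on its coding strand from the GENCODE annotation of GRCm38, at chr13:56251492-56251551 (−) in the only exon of *Neurog1*, chr3:127634167-127634226 (+) in exon 2 of *Neurog2*, chr2:79454573-79454632 (−) in exon 2 of *Neurod1*, chr10:130270981-130271040 (−) in exon 2 of *Neurod4* and chr3:102012987-102013046 (+) in exon 3 of *Nhlh2*.
Neurog1: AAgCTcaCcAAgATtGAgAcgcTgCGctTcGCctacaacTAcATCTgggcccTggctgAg
Neurog2: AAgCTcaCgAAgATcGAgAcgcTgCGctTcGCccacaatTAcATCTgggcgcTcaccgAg
Neurod1: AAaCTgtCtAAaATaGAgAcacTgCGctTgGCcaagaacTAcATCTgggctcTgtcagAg
Neurod4: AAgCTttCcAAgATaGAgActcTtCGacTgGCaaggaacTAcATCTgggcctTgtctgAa
Nhlh2: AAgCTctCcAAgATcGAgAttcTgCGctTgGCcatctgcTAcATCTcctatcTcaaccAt
Identity to *Neurog1* over these bases was 86.7% for *Neurog2*, 85% for *Neurog3*, 68.3% to 80% for the NeuroD genes, and 65% and 66.7% for *Nhlh1* and *Nhlh2*. The longest run of coding bases without a difference was 26 bases between *Neurog1* and *Neurog2*, cgcgagcgcaaccgcatgcacaacct, and every other pair of members shared at most 25. No stretch of 50 transcript bases was common to any pair of members, so reads of that length without errors would fall on a single member. Other genes do overlap some of them. *Neurod1* (2:79452521-79456751) shares 201 exon bases with *Cerkl*, which is transcribed in the same direction and had at most 22 counts in any library, so that 5.71% of its stretches of 50 bases are shared, and 154 with the antisense transcript *Gm26755*, which had at most 3. *Neurog3* (10:62133090-62134763) shares 273 exon bases with the antisense gene *Fam241b*, which had 9 to 559 counts. Whether the counting used strand is not given in the sources used here, so the low counts of *Neurog3* are uncertain to that extent.

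The promoters were read because *Neurog1*, *Neurog2*, *Neurog3*, *Neurod4*, *Nhlh1* and *Nhlh2* were found to be higher in NSC and NR than in NPC while *Neurod1* was not. RefSeq promoter windows of GRCm38 reach from 250 bases before to 50 bases after the start site and were found for all 9 genes, with a pair of windows for *Neurod4*. The kinds of motif counted on both strands were any E box (CANNTG), its form CAGATG or CATCTG, which is a part of the first kind and is the one proneural factors prefer, and CACNAG or CTNGTG, a form that Hes proteins bind. Printed are the bases upstream of the annotated exons for *Neurog2* at chr3:127632985-127633134 (+), *Neurod4* at chr10:130280255-130280404 (−), *Neurod1* at chr2:79456752-79456886 (−) and *Nhlh2* at chr3:102009926-102010075 (+), with each E box in capitals.
Neurog2: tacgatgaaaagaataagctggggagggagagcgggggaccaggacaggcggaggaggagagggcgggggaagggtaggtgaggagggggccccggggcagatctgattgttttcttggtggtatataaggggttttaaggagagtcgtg
Neurod4: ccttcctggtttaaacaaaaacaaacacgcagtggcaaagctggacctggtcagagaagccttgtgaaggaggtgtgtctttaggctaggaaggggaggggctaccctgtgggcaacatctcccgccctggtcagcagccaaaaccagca
Neurod1: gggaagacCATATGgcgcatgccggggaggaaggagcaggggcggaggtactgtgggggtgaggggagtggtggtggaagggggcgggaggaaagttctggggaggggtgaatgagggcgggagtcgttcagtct
Nhlh2: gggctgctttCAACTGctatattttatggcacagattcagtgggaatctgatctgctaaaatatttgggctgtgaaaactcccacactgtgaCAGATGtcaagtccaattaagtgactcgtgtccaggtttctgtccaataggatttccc
Over the whole windows *Nhlh2* held 4 E boxes, of which 1 had the proneural form, whereas *Neurog2* and the upstream window of *Neurod4* held 0. *Neurod1* held 1 E box of another form. An E box was present in 72.3% of the 32851 RefSeq windows, the proneural form in 17.2% and the Hes form in 42.5%. The proneural form was found in *Neurod2*, *Nhlh1* and *Nhlh2*, so it did not separate the members that were higher in NSC and NR from the others.

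**Figure D1:**
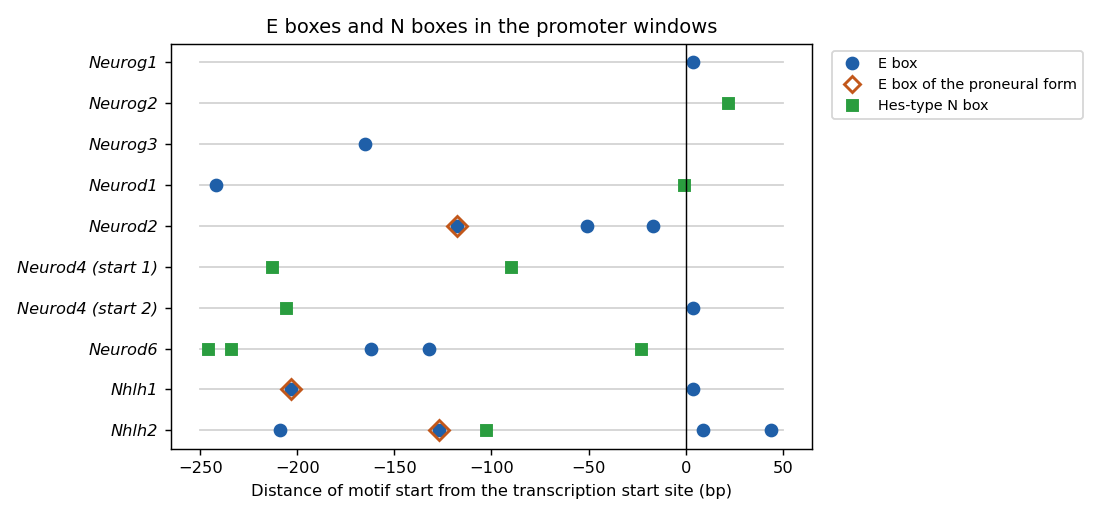
Position of each motif in the RefSeq promoter windows of the 9 genes, as the distance of its start from the transcription start site in base pairs (vertical line at 0), with E boxes as circles, E boxes of the proneural form outlined by diamonds and the Hes form as squares. *Nhlh2* held 4 E boxes and *Neurog2* and the upstream start of *Neurod4* held 0.

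To see which of these factors each cell type used, levels were set side by side as CPM per kilobase of exon, the scale on which genes of different length can be compared. Summed over the 9 members the level was 5.24 to 6.75 in NPC, 8.47 to 9.73 in NPC+ and 69.2 to 85.3 in NSC. In the libraries labelled NR it was 20.0 in replicate 1, 35.2 in replicate 2 and 38.0 in replicate 3. The make-up was alike in NPC and NPC+ and differed between them and NSC or NR. *Neurod1* held 85.8% to 88.4% of the summed level in NPC and 87.2% to 89.3% in NPC+, but 6.43% to 7.26% in NSC and 7.86% to 12.4% in NR. In NSC *Neurod4* led with 31.7% to 35.2%, followed by *Neurog2* with 22.8% to 24.2%. Progenitor cells thus had *Neurod1* almost alone, while NSC and NR had all 7 tested members at once, *Neurog3* the least. In bulk RNA fewer cells with a transcript and less of it per cell cannot be told apart.

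**Figure D2:**
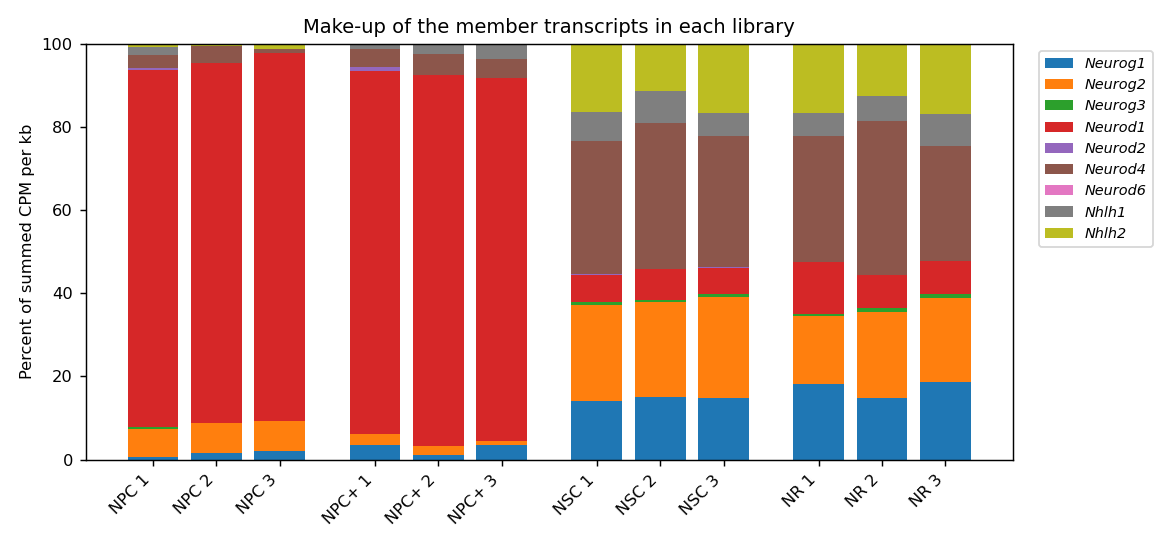
Percent of the summed CPM per kilobase of exon held by each of the 9 members in each of the 12 libraries, as stacked bars. *Neurod1* fills 85.8% to 89.3% of the bars of NPC and NPC+ and at most 12.4% of those of NSC and NR, where *Neurod4*, *Neurog2*, *Neurog1* and *Nhlh2* share most of the rest.

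The comparison of NSC with NPC asks how early neuroepithelial cells differ from glial progenitor cells. All 3 neurogenins, *Neurod4*, *Nhlh1* and *Nhlh2* were higher in NSC, each by more than 4-fold, and *Neurod1* was not. Among all genes tested 42.7% were called higher and 19.1% were both called and over 4-fold higher. The members' median log2 fold change was 6.19, against 0.20 over all genes tested.

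*Neurog1*, which starts neurogenesis in sensory and dorsal progenitors, had 18.7, 17.6 and 21.4 CPM in the NSC replicates and 1 count in each NPC library. The NSC libraries were far above NPC without overlap, as for 43.8% of genes, and the pooled CPM values stood at a ratio of 184 (exact 95% interval 62.9 to 894, which covers counting error only). Its log2 fold change was 7.42 (standard error 0.44, n = 3 per group, edgeR adjusted p = 3.73e-09). *Neurog2*, which drives cortical and spinal progenitors to become neurons, had 40.0, 35.1 and 46.0 CPM in NSC and 1.01, 0.837 and 1.04 CPM in NPC. It was the neurogenin with the highest level in both groups, and its log2 fold change was 5.37 (0.35, edgeR adjusted p = 1.08e-08). *Neurog3* stayed low everywhere, with 43, 20 and 29 counts in NSC (0.962, 0.691 and 0.884 CPM) and 1, 0 and 0 counts in NPC. Its pooled ratio of 24.8 rested on 1 NPC count and had an exact 95% interval from 4.34 to 991, and edgeR gave an adjusted p of 3.55e-04.

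*Neurod4*, a NeuroD gene of neuronal precursors in the retina and spinal cord, was the most abundant member in NSC with 84.0, 81.5 and 90.3 CPM, against 0.716, 0.698 and 0.209 CPM in NPC. Its level in NSC was even between replicates, and its log2 fold change was 7.09 (0.34, edgeR adjusted p = 4.58e-10). *Nhlh2*, expressed in young neurons and known from hypothalamic neurons, had 69.1, 42.8 and 76.2 CPM in NSC and 5, 1 and 2 counts in NPC. Replicate 2 was the lowest of NSC, yet every NSC library was above every NPC library, and the log2 fold change of 7.78 (0.43, edgeR adjusted p = 1.75e-09) was the largest of the members. *Nhlh1*, its close relative, had 13.4, 12.9 and 11.8 CPM in NSC and 5, 0 and 0 counts in NPC, with a log2 fold change of 6.19 (0.55, edgeR adjusted p = 2.10e-07). All NPC counts of *Nhlh1* came from replicate 1. Without that library NPC stood at 0 for *Nhlh1* and *Neurog3*, and the fitted log2 fold changes became 10.97 and 7.08, which depend on the prior count and are no bounds.

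**Figure D3:**
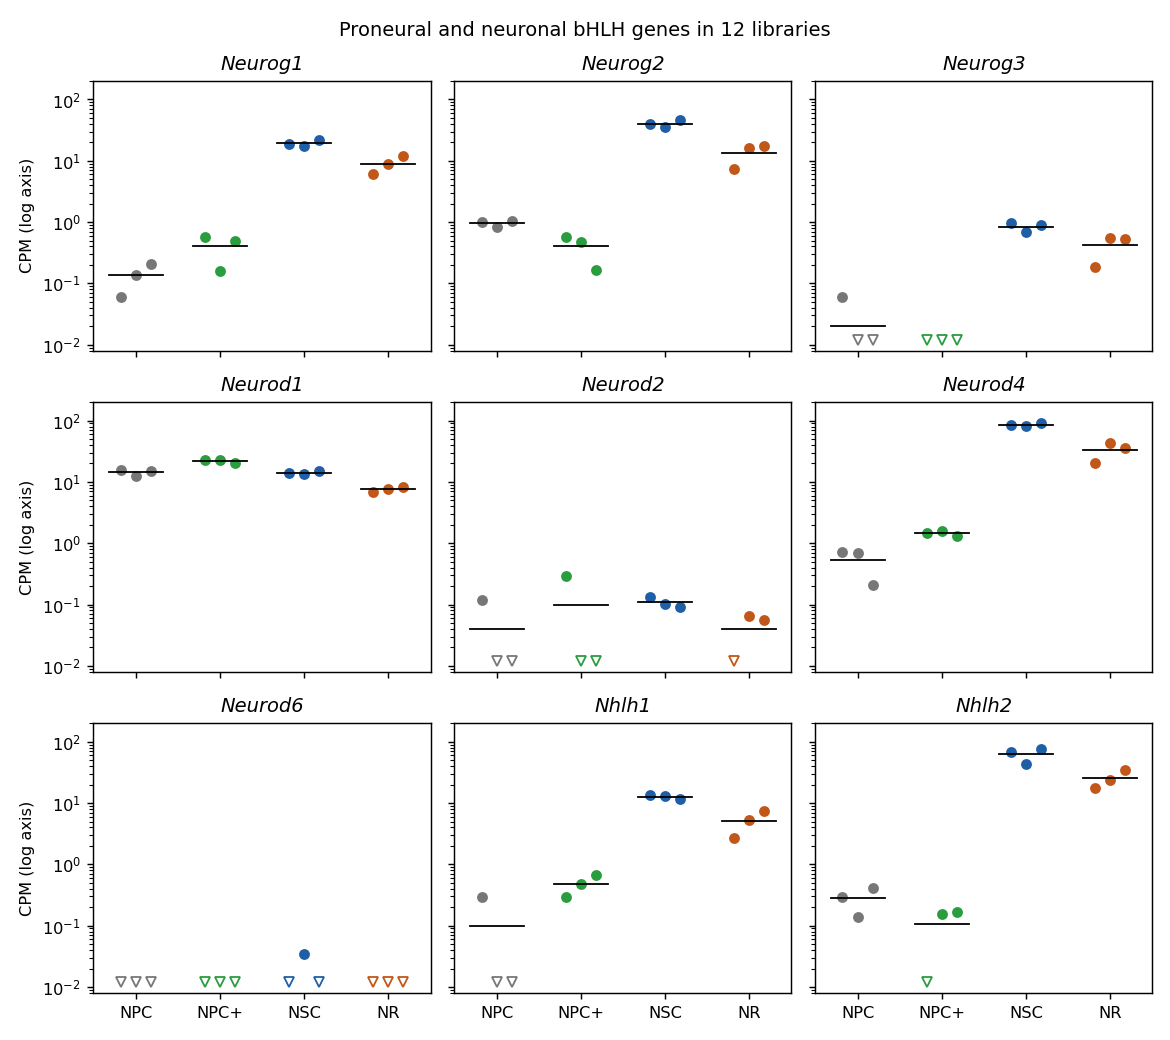
CPM of the 9 members in the 12 libraries on a log axis, with 1 point per library, open triangles at the foot for libraries with 0 counts, and a line at the mean of each group of 3. The NSC points of *Neurog1*, *Neurog2*, *Neurod4*, *Nhlh1* and *Nhlh2* lie between 11.8 and 90.3 CPM, whereas *Neurod1* lies between 6.77 and 23.2 CPM in every library.

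*Neurod1*, a driver of neuronal differentiation and survival, followed another order. It had 15.8, 12.4 and 15.2 CPM in NPC and 14.1, 13.7 and 15.0 CPM in NSC. These groups overlapped, and the log2 difference of NSC against NPC was -0.03 (standard error 0.14, 95% interval from that error -0.30 to 0.24, edgeR adjusted p = 0.861), with a sign that changed between scalings. In NPC+ it had 23.2, 22.6 and 20.2 CPM, above every other library, and in NR 6.77, 7.68 and 8.15 CPM, below every other library. The order of its levels was therefore NPC+, then NPC and NSC, which were not told apart, then NR. Against NPC the log2 fold change was 0.59 in NPC+ (0.14, edgeR adjusted p = 0.00476) and -0.94 in NR (0.14, edgeR adjusted p = 3.20e-05). Against NSC it was 0.62 in NPC+ (0.14, edgeR adjusted p = 0.00118). Over 15 alternative ways of fitting, the rise in NPC+ lay between 0.48 and 0.70 and passed in each.

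The libraries labelled NR were then compared with NPC, with which NSC had been compared as well, so both comparisons share the NPC libraries. The same 6 members were higher and *Neurod1* was lower, where 44.2% of all genes tested were called higher, 22% were also over 4-fold higher and 32.8% were called lower. The fitted rises of all 6 exceeded 4-fold, although the interval of *Neurog3* given below reaches under 4-fold. *Neurod4* had 20.3, 43.7 and 35.1 CPM in NR and a log2 fold change of 5.73 over NPC (0.34, edgeR adjusted p = 3.84e-09). *Nhlh2* had 17.9, 23.7 and 34.6 CPM in NR and *Neurog1* 6.10, 8.78 and 11.9 CPM, with log2 fold changes of 6.49 and 6.33, the latter on 3 NPC counts and thus a ratio of 92.0 with an exact 95% interval of 31.4 to 447. *Neurog2* followed with 7.27, 16.3 and 17.2 CPM and a log2 fold change of 3.81. *Nhlh1* had 2.71, 5.29 and 7.31 CPM and *Neurog3* 3, 17 and 19 counts, the latter at a ratio of 13.5 (2.29 to 548) over 1 NPC count. Replicate 1 was the lowest of the NR libraries for all 7 members tested, and without it the count was again 6 higher and 1 lower, with *Neurod1* at -0.91 and *Neurod4* at 5.93.

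Set against NSC directly, all 7 members were lower in NR, with no overlap between the groups for any of them. The share of all genes tested that was called lower was 25.8%, and 26.6% had all 3 NR values below all 3 NSC values. No member fell by more than 4-fold, which only 0.118% of genes did. *Neurog2* fell most, by 1.56 on the log2 scale (0.24, edgeR adjusted p = 1.78e-04), followed by *Neurod4* at -1.36 (0.20, 1.20e-04), *Nhlh2* at -1.30 (0.23, 4.80e-04), *Nhlh1* at -1.29 (0.32, 0.00405), *Neurog1* at -1.09 (0.22, 0.00126), *Neurod1* at -0.91 (0.13, 1.08e-04) and *Neurog3* at -0.91 (0.38, 0.0691). The members' median was -1.29, against 0.01 over all genes. Without NR replicate 1 the fold changes were smaller and 6 members passed, with *Neurog2* at -1.28 (edgeR adjusted p = 3.09e-05) and *Neurog3* no longer called at -0.65 (adjusted p = 0.195). The means of the remaining NR libraries were 16.7 CPM for *Neurog2* and 39.4 CPM for *Neurod4*.

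Other markers moved with this difference. All 5 pluripotency markers were more than 4-fold higher in NR than in NSC. Their median log2 fold change was 4.14, against 0.01 over all genes tested. Among them was *Pou5f1* with 101 ± 29.6 CPM (SD, n = 3) against 8.34 ± 3.90 CPM. In the same comparison 7 of the 8 neuroepithelial markers and 7 of the 8 neuron markers were lower. Without NR replicate 1 these counts were 5, 7 and 6, with *Pou5f1* at a log2 fold change of 3.34 (0.30, edgeR adjusted p = 3.06e-06). The mesoderm and endoderm markers added up to 80.0 to 136 CPM in NR and 37.5 to 55.9 CPM in NSC. Of the 5 tested, 4 were higher in NR and 1 was lower. *T* alone had a mean of 43.04 CPM in NR, with a wide spread between the libraries. The lower one was *Foxa2*, named after its value was seen, at -0.69 (0.26, edgeR adjusted p = 0.0399). Without NR replicate 1 the counts were 4 and 0, with *Foxa2* not called at -0.47 (0.24, edgeR adjusted p = 0.142). The part of pluripotent, mesoderm and endoderm cells in the lower level of the members was not tested.

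The comparison of NPC+ with NPC addresses whether activation of *Sox1* in glial progenitors was accompanied by proneural factors. Of the 7 members tested only *Neurod1* was called, as given above, where 21.6% of all genes tested were called higher and 22.7% lower. The other members passed the filter on low counts through NSC and NR, and the shares are over genes filtered in the same way. In a fit of NPC and NPC+ alone, over 12045 genes, *Neurod1* was the only member that passed the filter, so the others were hardly testable here. The count over 4-fold was 0 of 7, where 3.87% of genes were over 4-fold higher and 1.92% over 4-fold lower. Their median log2 fold change was 0.59, against 0.00 over all genes. That median is the value of *Neurod1* itself, and the members not called had values of both signs. *Neurod4* came closest among the others, with 5, 10 and 8 counts in NPC+ (1.45, 1.57 and 1.33 CPM) against 12, 5 and 1 counts in NPC (0.716, 0.698 and 0.209 CPM). All 3 NPC+ values were above the NPC values, as for 25.7% of genes, at a log2 difference of 1.22 (0.57) and an edgeR adjusted p of 0.112, and the call changed with the scaling and the tool. The ratio of the pooled CPM values was 2.32 (exact 95% interval 1.20 to 4.56, counting error only).

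*Neurog2* had 2, 3 and 1 counts in NPC+ and 17, 6 and 5 counts in NPC, all 3 CPM values below NPC, as for 27.1% of genes. Its log2 difference of -1.34 (0.72) did not pass (edgeR adjusted p = 0.172), and its pooled ratio was 0.389 (exact 95% interval 0.132 to 0.958). *Neurog1* had 2, 1 and 3 counts in NPC+ against 1 in each NPC library, a log2 difference of 1.79 (0.88, edgeR adjusted p = 0.132) with values that overlapped. For *Nhlh1* there were 1, 3 and 4 counts against 5, 0 and 0, and for *Nhlh2* 0, 1 and 1 against 5, 1 and 2. Their log2 differences of 1.55 (0.94, edgeR adjusted p = 0.225) and -1.10 (1.31, edgeR adjusted p = 0.560) did not pass either. *Neurog3* had 0 counts in NPC+ and 1 in NPC, both under the floor of 3 counts. These low counts let single libraries decide a call, since *Nhlh1* was called higher without NPC replicate 1 (edgeR adjusted p = 0.0494) and *Neurog1* without NPC+ replicate 2 (2.26, edgeR adjusted p = 0.0761). Genes within 5 Mb of *Nhlh2* had a median log2 fold change of 0.52 in this comparison over 88 tested genes, while those around *Neurog2*, on the same chromosome, had -0.16 over 56 genes and those around *Neurod1* -0.02 over 48. The part of these neighbourhoods in the members' values was not tested.

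**Figure D4:**
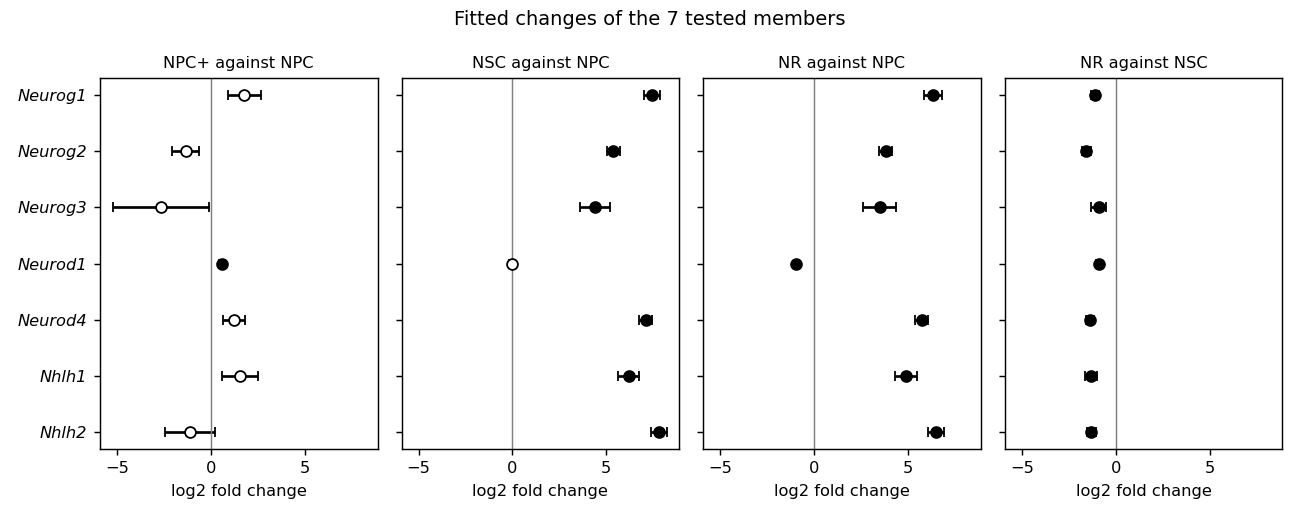
Log2 fold change of the 7 tested members in 4 comparisons, with bars of 1 standard error, filled where the change was called at an adjusted p under 0.1 and open where it was not. In NPC+ against NPC only *Neurod1* is filled, at 0.59, while in NR against NSC all 7 are filled and lie between -1.56 and -0.91.

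The levels that NPC+ reached were far from those of the neuroepithelial cells. Against NSC 6 members were lower and *Neurod1* was higher in NPC+, where 39.9% of genes tested were called lower, 16.4% were also over 4-fold lower and 30% were called higher. All 6 were more than 4-fold lower by the fit, with log2 fold changes of -4.64 for *Nhlh1* (0.51), -5.63 for *Neurog1* (0.40), -5.87 for *Neurod4* (0.32), -6.71 for *Neurog2* (0.45) and -8.89 for *Nhlh2* (0.52). The last value rests on 2 NPC+ counts, at a ratio of 0.00197 with an exact 95% interval of 2.39e-04 to 0.00713. Against NR the split was the same, with *Neurod1* higher by 1.54 (0.14, edgeR adjusted p = 3.82e-07), and there 42.9% of genes tested were called lower, 20% over 4-fold lower and 30.8% higher. Without NR replicate 1 it was again 6 lower and 1 higher, with *Neurod1* at 1.49 (0.15, edgeR adjusted p = 1.32e-06). *Neurog3* had 0 counts in all 3 NPC+ libraries. Its pooled ratio had an exact 95% interval of 0 to 0.275 against NSC and of 0 to 0.519 against NR. Both intervals include falls of less than 4-fold. Taking 3 counts over the group as the floor, it was 4.56-fold higher in NSC and 2.48-fold higher in NR, which are no bounds.

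*Neurod2* and *Neurod6*, known from cortical neurons, and *Neurog3*, best known from the pancreas, were low in every group, unlike *Neurod1*. *Neurod2*, which acts in cortical neurons, had 6, 3 and 3 counts in NSC, 0, 2 and 2 in NR, 2, 0 and 0 in NPC and 1, 0 and 0 in NPC+. *Neurod6*, a marker of differentiated cortical projection neurons, had 1 count in NSC replicate 2 and 0 in the other 11 libraries. *Neurog3* was counted in NSC and NR at under 1 CPM, but the endocrine markers *Pax4*, *Ins1* and *Gcg* had at most 3 counts in any library of the 4 groups.

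The genes around the proneural factors were counted from lists fixed by their role. The E proteins *Tcf3*, *Tcf4* and *Tcf12*, the dimer partners, were present in all groups and added up to 1347 to 1404 CPM in NPC and 1367 to 1377 CPM in NSC. All 3 were called higher in NPC+ than in NPC by small amounts, at log2 fold changes of 0.45 for *Tcf3*, 0.40 for *Tcf4* and 0.47 for *Tcf12*. In NSC against NPC their make-up shifted, with *Tcf3* higher by 1.82 (0.10, edgeR adjusted p = 1.53e-09) and *Tcf4* lower at -1.52 (0.07, edgeR adjusted p = 5.54e-10). All 3 were lower in NR than in NSC, also without NR replicate 1.

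The Id genes, whose proteins occupy the E proteins, were all 4 higher in NPC+ than in NPC. *Id3* rose from 43.3 ± 2.95 CPM to 256 ± 7.98 CPM (SD, n = 3 each), a log2 fold change of 2.56 (0.15, edgeR adjusted p = 2.73e-08), and the others rose by 0.65 for *Id2*, 0.91 for *Id1* and 1.40 for *Id4*. In NSC all 4 were again higher than in NPC, most of all *Id4* with 106 ± 12.3 CPM against 5.78 ± 0.95 CPM, and 3 of the 4 were lower in NR than in NSC with and without NR replicate 1. NPC+ thus held more *Id* transcripts than NPC, at a summed 582 to 629 CPM against 233 to 282 CPM.

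Of the Notch-dependent repressors *Hes1*, *Hes5*, *Hey1* and *Hey2*, only *Hey1* was called in NPC+ against NPC, at a log2 fold change of -1.12 (0.12, edgeR adjusted p = 5.27e-06). *Hes5*, the repressor most tied to neural progenitors, had 83.2 ± 9.69 CPM in NPC+ and 59.9 ± 2.62 CPM in NPC (SD, n = 3 each) and did not pass (edgeR adjusted p = 0.242). In NSC *Hes5* and *Hey2* were higher and *Hes1* and *Hey1* lower than in NPC, and all 4 were lower in NR than in NSC with and without NR replicate 1. Repressors and proneural members were thus both present in NSC.

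Other bHLH factors of the neural lineage changed in both directions. Of 9 genes 7 were tested, and in NPC+ against NPC 2 were higher and 2 lower. *Atoh8* rose by 2.47 (0.33, edgeR adjusted p = 4.61e-05) and *Bhlhe22*, a factor of neurons, by 2.90 from under 1 CPM. *Olig2*, a factor of the oligodendrocyte lineage, fell from 684 ± 39.8 CPM to 331 ± 10.2 CPM (SD, n = 3 each) with a log2 fold change of -1.05 (0.28, edgeR adjusted p = 0.00811), and its relative *Olig1* fell by 0.36. In NSC against NPC 4 were higher and 3 lower, with *Olig1* at -8.48 (0.13, edgeR adjusted p = 3.53e-14).

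Known targets of proneural factors in progenitors, 12 genes all tested, were higher in NSC than in NPC for 10 and lower for 2, with a median log2 fold change of 1.73 against 0.20 over all genes. Examples are the Notch ligand *Dll3* at 3.31 (0.23, edgeR adjusted p = 2.15e-08), the zinc finger factor *Insm1* at 3.23 (0.28, edgeR adjusted p = 1.59e-07) while the corepressor *Cbfa2t3* had 7.54 ± 0.827 CPM in NSC and 0.0895 ± 0.108 CPM in NPC (SD, n = 3 each). In NPC+ against NPC 2 of the 12 were higher and 6 lower, at a median of -0.39. The cell cycle inhibitor *Cdkn1c* fell from 27.6 ± 2.53 CPM to 0.834 ± 0.368 CPM (SD, n = 3 each), a log2 fold change of -4.97 (0.27, edgeR adjusted p = 1.34e-08), and *Gadd45g* fell by 1.06, while *Cbfa2t2* rose by 0.38 and *Cbfa2t3* was called higher at 0.844 ± 0.299 CPM in NPC+ (edgeR adjusted p = 0.0019). In NR against NSC 9 were lower, led by *Dll1* at -1.41 (0.15, edgeR adjusted p = 9.72e-06). The 1 that was higher was *Eomes*, named after its value was seen, which marks intermediate progenitors of the cortex but also early mesoderm and endoderm, at 2.75 (0.45, edgeR adjusted p = 2.65e-04). Without NR replicate 1, 8 were lower, with *Dll1* at -1.23 and *Eomes* higher at 2.44 (0.45, edgeR adjusted p = 8.41e-04).

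Genes of neuronal differentiation, 12 genes all tested, were higher in NSC than in NPC for 11 and lower for 0, with a median of 4.72. The cytoskeletal genes *Stmn2* and *Tubb3* rose by 7.51 (0.22, edgeR adjusted p = 6.21e-12) and 5.52 (0.19, edgeR adjusted p = 2.42e-11). The 8 markers of neurons, of which 4 are also on this list, were higher for 5 and lower for 2. Those lower were *Map2*, a gene of microtubules in dendrites, at 464 ± 14.1 CPM in NPC and 89.9 ± 33.2 CPM in NSC (SD, n = 3 each) with a log2 fold change of -2.37 (0.27, edgeR adjusted p = 2.35e-06), and the synaptic vesicle gene *Syt1* at -1.05 (0.17, edgeR adjusted p = 9.33e-05), both named after their values were seen. In NPC+ against NPC 3 were higher and 1 lower, with a median of 0.24. *Dcx*, which marks young migrating neurons, went from 0.713 ± 0.232 CPM to 4.57 ± 1.08 CPM (SD, n = 3 each; log2 fold change 2.78, standard error 0.63, edgeR adjusted p = 0.00311), *Myt1* rose by 2.89 (0.66) and *St18* by 1.81 (0.63), and *Ebf1* fell by 0.87. Of the neuron markers *Dcx* was the 1 called higher, and *Syt1* was lower at -1.25 (0.19, edgeR adjusted p = 1.75e-04). NR was lower than NSC for 10 of the 12 and higher for 0. *Tubb3* had the smallest adjusted p, at -0.88 (0.14, edgeR adjusted p = 1.82e-04), and *Myt1*, named after its value was seen, fell most, at -1.54. Without NR replicate 1 9 of the 12 were lower, with *Tubb3* at -0.71 and *Myt1* at -1.32.

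**Figure D5:**
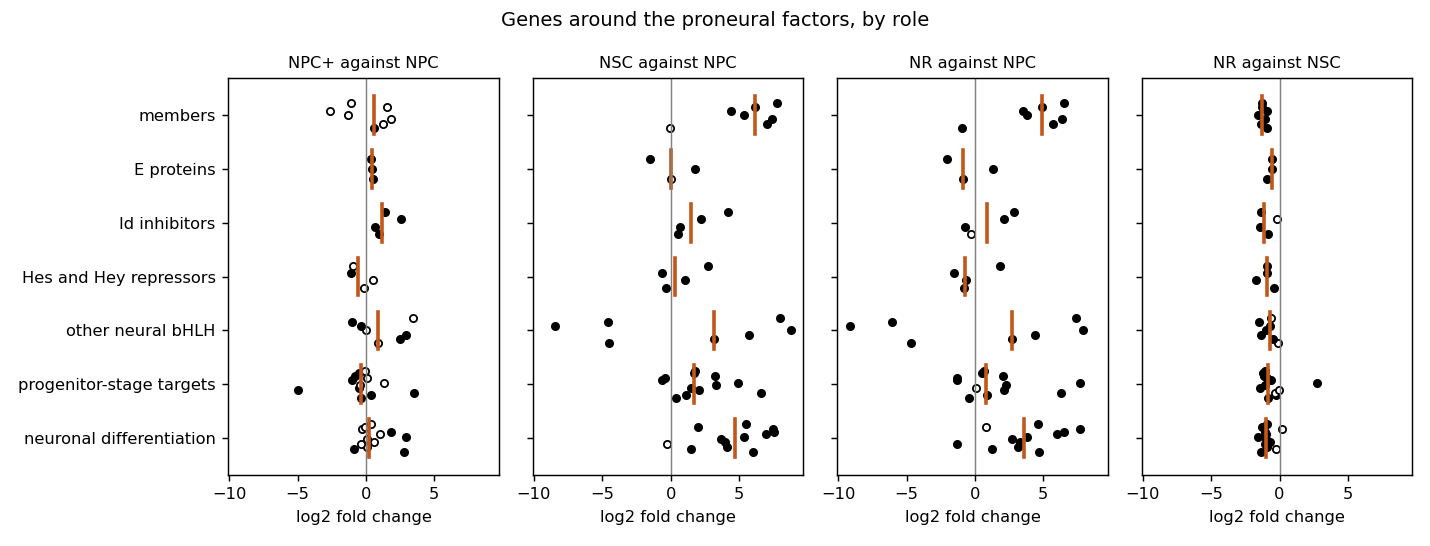
Log2 fold changes of the tested members and of the lists of genes around them in 4 comparisons, with 1 point per gene, filled where called at an adjusted p under 0.1, and a vertical bar at the median of each list. In NSC against NPC the members, the progenitor-stage targets and the neuronal differentiation genes have medians of 6.19, 1.73 and 4.72, and in NPC+ against NPC medians of 0.59, -0.39 and 0.24. The median of 0.59 is the value of *Neurod1* itself.

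The pattern over all 12 libraries was compared by Pearson's r of log2 CPM, which is given as a description, since all genes share the same libraries and depths. Among the members, r lay between 0.88 and 0.98 for every pair without *Neurod1* and between -0.63 and -0.41 for every pair with it. In NPC and NPC+, *Neurog1*, *Neurog3*, *Nhlh1* and *Nhlh2* had at most 5 counts in any library. Their r therefore rests on the difference of NSC and NR from the progenitor cells and does not show that they vary together within a group. The genes most like *Neurog1* were *Cnih2*, *Srrm4*, which codes for a splicing regulator of neurons, and *Zfp219*, each at r of 0.99. *Dach1* and *Lin28b*, an RNA-binding protein gene of early progenitors, and *Naa40* were most like *Neurod4*. For *Neurog2* the closest were *E130308A19Rik*, *Irx3* and *Cyfip2*, for *Neurog3* *Zfp663*, *Hoxb5os* and *Pdzph1*, for *Nhlh1* *Mpped1*, *Hpse* and *Efcc1*, and for *Nhlh2* *Miat*, *Uncx* and *Aff3*, and r lay between 0.989 and 0.996 for all of these. *Neurod1* had few genes like it. Its closest were *Wdr13*, *A130014A01Rik* and *Slc25a46* at r of 0.97 to 0.99, and 20 genes passed 0.95, against 269 to 894 for each of the other 6 members.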

How the data were processed

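The authors extracted total RNA (PicoPure) and made cDNA by SMART-Seq amplification. The authors deposited raw counts per Ensembl gene for 12 libraries, without normalization. STAR 2.6, RSEM 1.1.14 and mm10 are listed in the submitters' processing notes without their roles. The strand setting, the annotation, read filters and any rounding of estimates are not given in the sources used here. Symbols, positions and exon lengths came from GENCODE for GRCm38 (45143 identifiers matched, 563 did not).

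Counts were scaled by TMM and filtered by filterByExpr over the 4 groups. All 12 libraries were fitted by edgeR 4.0.16 (R 4.3.3) with glmQLFit and glmQLFTest without a block. P values were adjusted by Benjamini and Hochberg over 17003 genes, and a change was called at an adjusted p under 0.1 and p under 0.05. Changes of over 4-fold are given beside. Standard errors are the log2 fold change over the square root of F. DESeq2 1.42.0 was an alternative, and the calls were checked on simulated counts. For NPC+ against NPC over 17003 genes, 8-fold changes were called for 100 of 100 raised and 82 of 100 lowered genes, with 14 calls among 16803 unchanged genes. Each simulated gene had its mean over all 12 libraries and the same spread as every other gene. Members high in NSC and NR had far lower real counts in NPC and NPC+, so the check does not give the power for them. Ratios of pooled counts have exact Clopper-Pearson intervals.

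The members and lists were chosen with earlier results of these data known. All 9 members are named. A gene of the list of other neural bHLH factors is not reported here and was left out of its counts. Of a list of up to 5 genes all could be named, of longer lists the 4 with the smallest adjusted p in a comparison, and for each tested member the 3 genes with the highest r. In NR and NSC, libraries of the same number deviated together (r of 0.229, 0.490 and 0.296). Libraries of different numbers lay between -0.410 and 0.301, the last for NR replicate 3 with NSC replicate 1, so these values do not establish a pairing by number. In the other comparisons r of the same numbers lay between -0.0472 and 0.0619, so there the numbers do not pair the libraries.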

Additional observations from a re-analysis of the deposited data

How the results depend on the processing

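Each of 42 results, the log2 fold changes of 7 members in 6 comparisons, was recomputed under up to 15 alternatives, namely DESeq2 size factors, upper-quartile scaling, DESeq2's Wald test, other filters, a block, the fit of only the groups compared, another prior count, thinning to 3407066 counts per library and the omission of each replicate. Of 610 values 591 kept their direction and their side of the threshold. The number of members called in NPC+ against NPC, 1 in the report, was 2 with DESeq2 size factors, with upper-quartile scaling, with DESeq2's Wald test and after thinning, 3 without a filter, 0 with a fold over 4, and 1 to 2 when a replicate was left out (2 without NPC replicate 1 and 2 without NPC+ replicate 2). *Neurod4* was the further call with DESeq2 size factors (1.26, edgeR adjusted p = 0.0977), with upper-quartile scaling (1.29, 0.0938), with the Wald test (1.28, 0.0384) and without a filter (1.22, 0.0423), *Neurog2* the lower one without a filter (adjusted p = 0.0959) and after thinning (-1.56, 0.0998), *Nhlh1* without NPC replicate 1 (adjusted p = 0.0494) and *Neurog1* without NPC+ replicate 2 (2.26, 0.0761). In NR against NSC the 7 calls became 0 with a fold over 4, and *Neurog3* was no longer called with the Wald test (adjusted p = 0.319) and without NSC replicate 1 (0.185), NSC replicate 3 (0.145), NR replicate 1 (0.195) or NR replicate 3 (0.1001). The log2 difference of *Neurod1* in NSC against NPC turned positive, to 0.014 with DESeq2 size factors, 0.0089 with upper-quartile scaling, 0.0082 with the Wald test, 0.055 without a filter, and 0.038 and 0.012 without NPC replicates 1 and 3. The cause was not tested. Its lowest value with a replicate left out was -0.14. Replicate number, used as a block, left 7 members called in NR against NSC and 1 in NPC+ against NPC, and it changed no other call. *Neurog1* against NPC rested on 3 NPC counts, and without NPC replicate 1 its log2 fold change was 6.78 in NSC and 5.68 in NR. The counts of the gene lists without NR replicate 1 were chosen after seeing the data, and in NR against NSC the list of other neural bHLH factors went from 5 lower to 3.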
